A study of Mus musculus with 9 samples.

Results

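Dendritic cells take up antigen and present it to T cells, and the spleen holds several kinds of them. Conventional dendritic cells of the first kind (cDC1) specialise in cross-presentation to CD8 T cells and depend on the transcription factor BATF3. Those of the second kind (cDC2) mainly present antigen to CD4 T cells, and plasmacytoid dendritic cells (pDC) are known for their output of type I interferon. The 7 genes described here mark these kinds. Clec9a and Batf3 belong to cDC1, Clec10a and Cd209a to cDC2 and related cells, Siglech to pDC, and Zbtb46 and Flt3 to dendritic cells or their precursors more broadly. They were taken by symbol from a deposited table of 46517 genes in 9 libraries, and all 7 were found.

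RNA was sequenced from C57BL/6 mice older than 18 months. The 3 wild-type spleens carry the numbers 1, 4 and 5. The 4 spleens of plckGAPDH mice, whose mice the labels describe as developing tumours, are 343, 508, 547 and a spleen whose column gives no animal number (the unnumbered spleen). Whether the unnumbered spleen is that of animal 331 or a second sample of 343 or 547 was not established. The 2 lymph nodes came from mice 455 and 508 of the same line. Both are labelled as lymph node, but their titles differ, with MES for 455 and LN for 508. What MES stands for was not established. In plckGAPDH mice the Lck promoter drives extra Gapdh in T lineage cells, and the title of the series names a T cell lymphoma. No wild-type lymph node was analysed here. Animal 508 gave both a spleen and a node. Values are FPKM, that is fragments relative to the length of the gene and the depth of the library. Whether all samples of a group come from separate animals is not stated in the labels, so the p-values cover only how much these samples vary, which may be technical.

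Estimated depth was 23900000 to 34600000 fragments per library. Some libraries stood apart. Immunoglobulin and T cell receptor genes took 9.03% of all FPKM in plckGAPDH spleen 508, against 0.861% to 1.55% in the other spleens, and Ptprc, the leukocyte antigen CD45, was at 103 FPKM there, against 214 to 424 in the other spleens. Mitochondrial genes took 43.3% of all FPKM in wild-type spleen 4 and 35.5% in plckGAPDH spleen 343, against 11.4% to 23.7% in the other spleens. In wild-type spleen 5 the globin gene Hbb-bs reached 33216 FPKM, compared with 0.170 and 28.1 in wild-type spleens 4 and 1. Itgax, the integrin CD11c that defines conventional dendritic cells, was present in every library, at 15.4 to 19.3 FPKM in wild-type spleens, 5.64 to 34.3 in plckGAPDH spleens, and 2.16 and 19.6 in the nodes. Itgax is also carried by some macrophages and lymphocytes.

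Promoter sequences were in the RefSeq table (build GRCm38.p6) for 6 of the 7 genes. Those of Clec9a, Siglech and Cd209a are printed because these genes had no plckGAPDH spleen as high as the lowest wild-type one; Clec10a, the fourth such gene, had no entry. Each run is the 250 bases before the start site, 5′ to 3′ on the strand of the gene, and capitals mark the letters CACCTG, which is CAGGTG read on the other strand, an E box bound by factors such as TCF4 of pDC.
Clec9a, chr6:129408612-129408861, plus strand: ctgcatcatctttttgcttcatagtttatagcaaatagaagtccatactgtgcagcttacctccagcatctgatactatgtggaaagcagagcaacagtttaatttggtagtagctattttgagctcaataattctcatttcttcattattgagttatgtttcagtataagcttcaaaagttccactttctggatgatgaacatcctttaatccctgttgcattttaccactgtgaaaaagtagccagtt
Siglech, chr7:55767934-55768183, plus strand: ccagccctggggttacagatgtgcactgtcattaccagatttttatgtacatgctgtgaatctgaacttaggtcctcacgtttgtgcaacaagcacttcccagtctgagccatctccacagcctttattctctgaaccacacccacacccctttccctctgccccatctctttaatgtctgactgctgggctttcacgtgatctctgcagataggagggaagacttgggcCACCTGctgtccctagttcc
Cd209a, chr8:3748985-3749234, minus strand: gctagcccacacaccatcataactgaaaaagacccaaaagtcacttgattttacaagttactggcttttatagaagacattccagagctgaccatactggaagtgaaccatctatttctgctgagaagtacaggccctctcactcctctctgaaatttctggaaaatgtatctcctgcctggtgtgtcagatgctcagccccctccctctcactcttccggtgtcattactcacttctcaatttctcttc

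4 sets of letters were searched on both strands: GAGGAA (bound by PU.1), TGANTCA (AP-1, the family to which BATF3 belongs), the paired GAAA site of interferon regulatory factors, and CAGGTG (E box). Siglech held 1 E box, from -20 to -15 relative to the start site. The windows of Clec9a, Cd209a and Flt3 held none of the letters. Batf3 held GAGGAA, and Zbtb46 held TGACTCA and an E box, each at a start site inside its annotated gene. Over the 250 bases before 32851 mouse start sites of the same table, 23.3% held GAGGAA, 6.75% TGANTCA, 2.98% the paired GAAA site and 17.2% CAGGTG, so matches of this kind are common. A match is a description of the letters and not a measured binding site.

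Between plckGAPDH and wild-type spleens, 4 of the 7 genes separated the groups by level and 3, Batf3, Zbtb46 and Flt3, overlapped. Clec9a, Siglech, Cd209a and Clec10a had all 4 plckGAPDH values below all 3 wild-type values. The same held for 3.88% of the 12607 genes tested, of which Cd209a was not one. The 7 genes were chosen with earlier results of these data known. None of the 6 genes tested was called by limma at an FDR (the false discovery rate of Benjamini and Hochberg, over all genes tested) below 0.05. Of all genes tested, 1.44% were called. In bulk samples, fewer cells of a type, less RNA per cell and a larger share of RNA from other cells cannot be told apart.

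**Figure D1:**
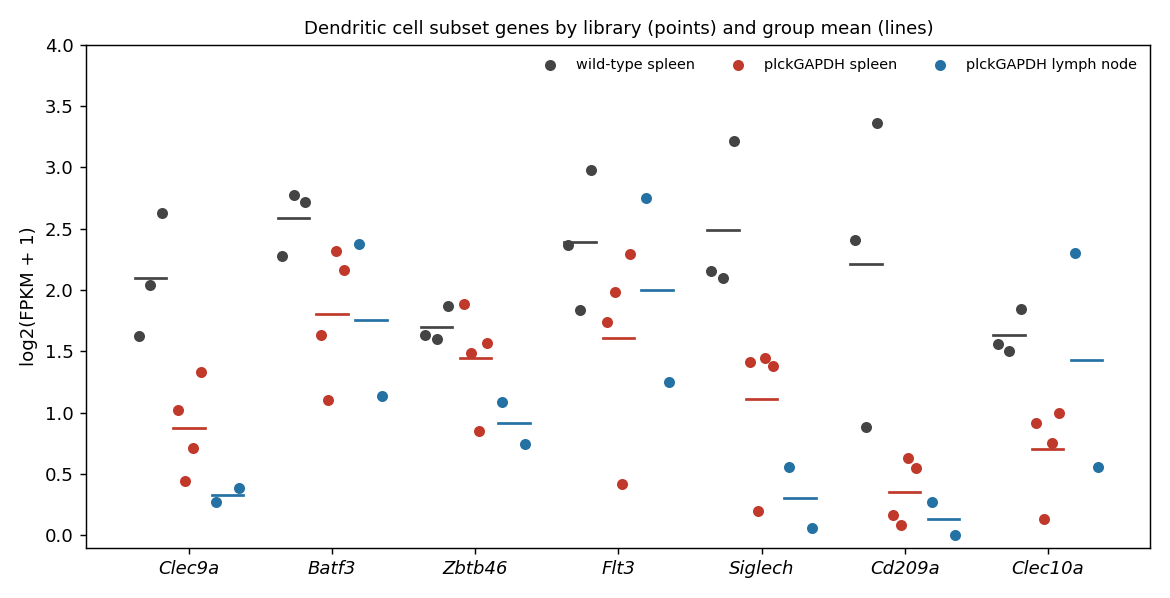
Level of each gene, as log2(FPKM + 1), in the spleens of wild-type (3) and plckGAPDH mice (4) and in 2 lymph nodes; points are libraries and lines are group means. The red points of Clec9a, Siglech, Cd209a and Clec10a all lie below the grey ones, whereas those of Batf3, Zbtb46 and Flt3 overlap with them.

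Clec9a encodes the receptor DNGR-1, with which cDC1 recognise dead cells. Its FPKM were 2.09, 3.12 and 5.18 in wild-type spleens 1, 4 and 5, and 1.03, 0.36, 0.64 and 1.52 in plckGAPDH spleens 343, 508, 547 and the unnumbered spleen. The highest transgenic value, that of the unnumbered spleen, stayed below the lowest wild-type value, that of spleen 1. The group means were 3.46 ± 1.57 (SD, n = 3) and 0.888 ± 0.503 (SD, n = 4), a difference of -1.22 in log2(FPKM + 1), called the log2 fold change from here on (SE 0.36, unadjusted 95% interval -2.0 to -0.44, limma FDR 0.189). Clec9a lies on chromosome 6, 129408862 to 129424763, and its first bases overlap the end of Clec1b on the same strand, so reads there could be assigned to either gene. At most 27 fragments (spleen 508) to 116 (unnumbered spleen) stood behind the transgenic values.

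Batf3, the transcription factor on which cDC1 depend, differed less. Its FPKM were 3.85, 5.84 and 5.57 in wild-type spleens 1, 4 and 5, and 2.11, 1.15, 3.98 and 3.47 in plckGAPDH spleens 343, 508, 547 and the unnumbered spleen. Spleen 547 lay just above wild-type spleen 1, so the groups overlapped. The log2 fold change was -0.79 (SE 0.38, unadjusted 95% interval -1.61 to 0.04, limma FDR 0.618). Batf3 is also expressed by activated T cells, and its RNA was not assigned to a cell type. It lies on chromosome 1, 191097847 to 191108945.

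Siglech, a sialic acid-binding-type receptor used to identify mouse pDC, had FPKM of 3.46, 3.28 and 8.28 in wild-type spleens 1, 4 and 5. In plckGAPDH spleens 343, 547 and the unnumbered spleen it was at 1.67, 1.73 and 1.6, and in spleen 508 at 0.15. The former transgenic spleens were nearly alike, and spleen 508, at no more than 11.6 fragments, lay far below them. Mean FPKM was 5.01 ± 2.84 (SD, n = 3) in wild-type and 1.29 ± 0.760 (SD, n = 4) in plckGAPDH spleens, and the log2 fold change was -1.38 (SE 0.42, unadjusted 95% interval -2.30 to -0.46, limma FDR 0.220), or -1.07 without spleen 508 (limma FDR 0.334). Siglech lies on chromosome 7, 55768178 to 55778925.

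Cd209a, the mouse lectin DC-SIGN of cDC2 and of dendritic cells derived from monocytes, spanned the widest range. Its FPKM were 4.30, 0.84 and 9.28 in wild-type spleens 1, 4 and 5, and 0.12, 0.06, 0.55 and 0.46 in plckGAPDH spleens 343, 508, 547 and the unnumbered spleen. The groups did not overlap, but wild-type spleen 4 lay close to spleen 547, and spleens 343 and 508 rested on at most 4.2 and 2.0 fragments. Only 2 spleens, both wild-type, reached 1 FPKM, so Cd209a did not pass the filter of 1 FPKM in 3 spleens and had no main test. Wild-type spleens averaged 4.81 ± 4.24 FPKM (SD, n = 3) and plckGAPDH spleens 0.298 ± 0.244 (SD, n = 4), which differ by -1.86 on the log2(FPKM + 1) scale. With no filter on low values the limma FDR was 0.584, with median-of-ratios scaling, under which it passed the filter, 0.152, and with the library scaled to genes other than mitochondrial, globin and receptor genes 0.0278. Cd209a (chromosome 8, 3743397 to 3748984) stands beside related genes such as Cd209d, whose reads may be shared with it; Cd209d was at 0.82 to 3.58 FPKM in wild-type and 0 to 0.38 in plckGAPDH spleens.

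Clec10a, a lectin for galactose-type sugars on cDC2 and macrophages, had FPKM of 1.95, 1.83 and 2.60 in wild-type spleens 1, 4 and 5. In plckGAPDH spleens 343, 508, 547 and the unnumbered spleen it was at 0.89, 0.10, 0.69 and 1.0. The wild-type spleens lay close together, and spleen 508, with at most 6.5 fragments, was again the lowest. Mean FPKM was 2.13 ± 0.414 (SD, n = 3) in wild-type and 0.670 ± 0.401 (SD, n = 4) in plckGAPDH spleens, and the log2 fold change was -0.93 (SE 0.32, unadjusted 95% interval -1.63 to -0.24, limma FDR 0.317). Clec10a (chromosome 11, 70156197 to 70170834) has a close relative, Mgl2, which stayed under 1 FPKM in all 7 spleens, at 0.40 to 0.60 in wild-type and 0.11 to 0.83 in plckGAPDH spleens.

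Zbtb46, a transcription factor of conventional dendritic cells that endothelium also carries, showed no separation. Its FPKM were 2.11, 2.03 and 2.65 in wild-type spleens 1, 4 and 5, and 2.70, 1.80, 0.80 and 1.97 in plckGAPDH spleens 343, 508, 547 and the unnumbered spleen. Spleen 343 was the highest and spleen 547 the lowest of all 7. The log2 fold change was -0.25 (SE 0.34, unadjusted 95% interval -0.99 to 0.48, limma FDR 0.964) with values of -0.40 without spleen 343 and -0.05 without spleen 547, and became 0.26 with scaling to Ptprc, an alternative chosen after seeing the data. Zbtb46 lies on chromosome 2, 181387762 to 181459426. Of 6 endothelial genes fixed as markers, 2 were tested and both had negative fold changes, none called. All 6 summed to 16.8 to 64.6 FPKM in wild-type and 7.99 to 32.1 in plckGAPDH spleens. Most of that was Pecam1, at 14.8 to 52.1 FPKM in wild-type and 7.58 to 29.25 in plckGAPDH spleens. The part of these genes in the Zbtb46 values was not tested.

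Flt3 encodes the receptor for FLT3 ligand, which drives dendritic cell development from bone marrow precursors. Its FPKM were 4.17, 2.57 and 6.87 in wild-type spleens 1, 4 and 5, and 2.33, 2.95, 0.34 and 3.90 in plckGAPDH spleens 343, 508, 547 and the unnumbered spleen. Spleen 547 stood alone at the low end, and the other plckGAPDH spleens lay near the range of the wild-type ones. The log2 fold change was -0.79 (SE 0.47, unadjusted 95% interval -1.81 to 0.23, limma FDR 0.764), -0.39 without spleen 547 (limma FDR 0.999) and -0.50 without wild-type spleen 5 (limma FDR 0.919). Flt3 (chromosome 5, 147330741 to 147400489) overlaps an antisense gene, Gm26597. Of 8 markers of blood progenitors, which also carry Flt3, 4 were tested, 3 had negative fold changes and none was called. All 8 summed to 7.30 to 25.8 FPKM in wild-type and 7.41 to 20.4 in plckGAPDH spleens. Its ligand gene Flt3l was at 14.6 to 20.6 FPKM in wild-type and 5.94 to 15.9 in plckGAPDH spleens, which differ by -0.59 in log2 fold change (SE 0.41, limma FDR 0.832), or by -0.29 without spleen 508.

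**Figure D2:**
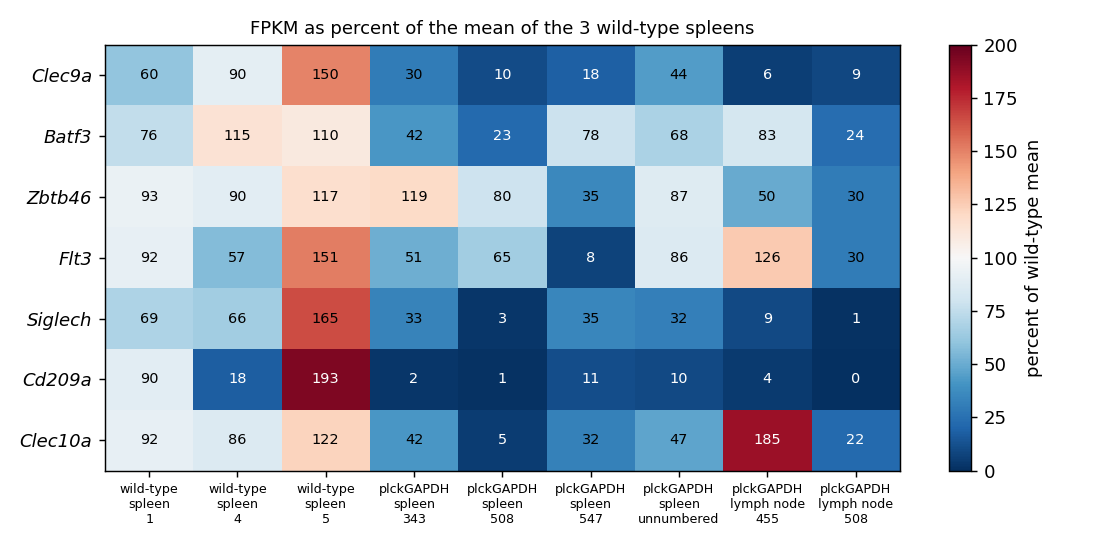
FPKM of each gene (rows) in each library (columns) as percent of the mean of the 3 wild-type spleens; blue is below and red above that mean. The library of plckGAPDH spleen 508 held 10.4% of the wild-type mean of Clec9a and 79.5% of that of Zbtb46, and spleen 547 held 18.5% and 35.3%.

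The transgenic spleens were low in different genes. Spleen 508 was the lowest of the 7 spleens in 5 genes, at 10.4% of the wild-type mean for Clec9a, 22.6% for Batf3, 3.0% for Siglech, 1.2% for Cd209a and 4.7% for Clec10a, but it held 65.0% for Flt3 and 79.5% for Zbtb46. Spleen 547 was the lowest in the other 2 genes, at 7.5% for Flt3 and 35.3% for Zbtb46, while Batf3 was at 78.2%. Spleen 343 held 119% for Zbtb46 beside 2.5% for Cd209a. Wild-type spleen 5 was the highest of the 7 spleens in 5 genes. Without it the log2 fold changes were -0.96 for Clec9a, -1.02 for Siglech, -1.29 for Cd209a and -0.83 for Clec10a. The shares of all genes lowest in spleen 508 or highest in wild-type spleen 5 were not counted. Their median-of-ratios factors, a measure of the general level of a library, were 0.789 and 1.33. After that scaling spleen 508 stayed lowest in the same genes, for Clec9a at 0.456 against 0.459 in spleen 547. Wild-type spleen 5 was then no longer the highest in Clec10a.

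Of the 6 genes tested, 0 were called with limma, against 1.44% of the 12607 genes tested, and 3 had an unadjusted p under 0.05, all lower, against 4.67% of all genes. In those 3, Clec9a, Siglech and Clec10a, the groups did not overlap, and plckGAPDH spleens were lower without overlap in 3.88% of all genes tested. The filter counts a gene that reaches 1 FPKM in wild-type spleens alone, and Clec10a and Clec9a reached it in 1 and 2 plckGAPDH spleens. Cd209a, not tested, makes 4 genes of the 7 without overlap. With median-of-ratios scaling Batf3 also did not overlap, which made 5 of 7 beside 6.62% of all genes. With scaling to genes other than mitochondrial, globin and receptor genes Flt3 joined them, which made 6 of 7 beside 4.93%. Because the 7 genes were chosen with earlier results of these data known, these counts do not test them as a set. The scalings moved spleen 508 in opposite directions, with divisors of 0.789 and 1.71 over the 9 libraries. Both raised wild-type spleen 4, with divisors of 0.873 and 0.521. The median log2 fold change of all genes was 0.02 as deposited, 0.05 and -0.18 under these 2 scalings. Over the 17 alternatives, Clec9a ran from -1.91 to -0.55, Siglech from -2.10 to -0.89, Cd209a from -3.33 to -1.29 and Clec10a from -1.77 to -0.63.

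**Figure D3:**
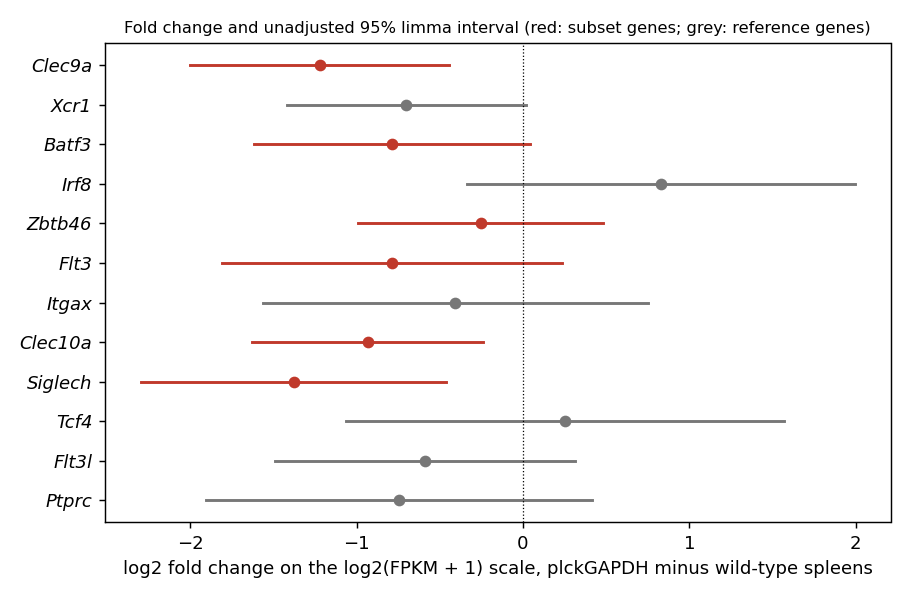
Log2 fold change on the log2(FPKM + 1) scale, plckGAPDH minus wild-type spleens (horizontal axis), with unadjusted 95% limma intervals, for 6 subset genes (red) and 6 reference genes (grey); Cd209a had no main test. The intervals of Clec9a, Siglech and Clec10a lie below 0, and those of the other genes include 0.

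Other genes of the same cells did not all follow. Xcr1, the chemokine receptor that marks cDC1, was at 1.23 to 3.01 FPKM in wild-type and 0.48 to 1.44 in plckGAPDH spleens, with a log2 fold change of -0.70 (limma FDR 0.588). Irf8, a factor that cDC1 and pDC need and that B cells also express, was at 32.5 to 77.2 FPKM in wild-type and 45.5 to 166 in plckGAPDH spleens, at 0.83 (limma FDR 0.802), or 0.43 without wild-type spleen 4. Tcf4, a factor of pDC that B and plasma cells share, was at 12.2 to 35.6 and 8.90 to 64.8 FPKM, at 0.25 (limma FDR 0.990), a sign that turned without wild-type spleen 4 or plckGAPDH spleen 547. Itgax was at -0.41 (limma FDR 0.962), -0.05, -0.20 and -0.86 without spleens 508, 547 and 343, and 0.28 with scaling to Ptprc. Cd74, the invariant chain of MHC class II, was at 853 to 2999 FPKM in wild-type and 2233 to 2928 in plckGAPDH spleens, at 0.40 (limma FDR 0.972), and turned to -0.21 without wild-type spleen 4.

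7 lists of dendritic cell genes, also chosen with earlier results of these data known, held 130 genes beside the 7 described above. Of these, 108 were tested, 67 had negative fold changes (48.4% of all genes tested did), and 0 were called with limma, against 1.44% of all genes; 14 (13.0%) had an unadjusted p under 0.05, against 8.85% of all genes. The plckGAPDH spleens were lower without overlap in 6 (5.56%), close to the 3.88% of all genes, and higher without overlap in 1, Nfil3, against 3.39% of all genes. The median log2 fold change of the 108 genes was -0.23.

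The lists are given by role, and no gene of them was called. The cDC1 list, counted with Clec9a and Batf3, had 16 genes tested, 14 with negative fold changes, and a median of -0.64. Itgae, the integrin CD103 of cDC1 that some T cells also carry, had the largest difference, at 3.46 to 4.31 FPKM in wild-type and 0.23 to 1.36 in plckGAPDH spleens, and a log2 fold change that came to -1.47 (SE 0.33, limma FDR 0.0502). Over the alternatives its FDR ran from 0.00153 to 0.285. It was under 0.05 in 3 of them (0.0442 with all 9 libraries, 0.0383 without spleen 343, and the lowest with sample quality weights), and was, for example, 0.236 and 0.260 without wild-type spleen 4 or 5. Tlr3, the sensor of double-stranded RNA in cDC1, was at 1.36 to 2.72 and 0.21 to 1.24 FPKM, without overlap (limma FDR 0.489); it and Gcsam, also without overlap, were picked out after their values were seen. The cDC2 list had 11 genes tested, 10 of them negative, and a median of -0.65. Beside Cd209a, which was not tested, its largest differences were Dtx1, a regulator of Notch signalling, at -2.24 (limma FDR 0.197) and Cd7 at -1.80 (limma FDR 0.524; -0.95 without spleen 508), genes that B cells and T or NK cells express as well.

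In the pDC list, which holds Siglech, of 18 genes tested 10 had negative and 8 positive fold changes, with a median of -0.07. Beside Siglech, the largest difference was Cobll1 at -1.38 (limma FDR 0.381). Among 14 genes shared by conventional dendritic cells, 7 were negative and 7 positive, with a median of -0.08. The positive ones were Traf1 and the MHC class II presentation genes Cd74, Ciita, H2-Aa, H2-Ab1, H2-Eb1 and H2-DMb2. Each of these presentation genes was lowest, among all spleens, in wild-type spleen 4, so their signs lean on that library. H2-Aa was at 1531, 550 and 1696 FPKM in wild-type spleens 1, 4 and 5, and at 1095 to 1398 in plckGAPDH spleens. Without wild-type spleen 4, Cd74 was at -0.21. The negative ones were Zbtb46, Flt3, Itgax, Kmo, Dpp4, Clec4a2 and Bcl11a. The median thus joins 2 kinds of gene, and which cells carried them was not tested. Dpp4 was at -1.33 (limma FDR 0.624) and Bcl11a, a factor of lymphoid and dendritic precursors, at -0.80 (limma FDR 0.837). Without spleen 508 they were at -0.72 and -0.37, and Bcl11a was at -0.48 and -1.23 without wild-type spleen 1 or 4.

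Genes of dendritic cell development and of the mature, migrating state included positive differences. Of 26 development genes, 16 were negative and 10 positive, with a median of -0.17. Batf, a relative of Batf3 active in lymphocytes, was at 17.3 to 32.0 FPKM in wild-type and 30.3 to 222 in plckGAPDH spleens, at 1.41 (limma FDR 0.528), with its highest value in the unnumbered spleen, without which it was at 0.79 (limma FDR 0.804). Nfil3, a factor needed for cDC1 and for NK cells, was at 1.68 to 3.95 and 5.72 to 8.35 FPKM, without overlap, at 1.15 (SE 0.35, limma FDR 0.225). Of 15 genes of the mature state, 10 were positive and 5 negative, with a median of 0.36. Fscn1, the actin bundler fascin, was at 2.28 to 8.16 FPKM in wild-type and 2.22 to 45.8 in plckGAPDH spleens, at 1.68 (limma FDR 0.588; 0.0102 without spleen 547), and Socs2, an inhibitor of cytokine signalling, at 1.48 (limma FDR 0.528). Of 15 other lectin and Siglec receptors, in a list drawn up for myeloid cells, 12 were negative, with a median of -0.60. That list also holds Cd22, Siglecg and Clec2d, which lymphocytes carry. Clec4a3 was at -1.82 (limma FDR 0.256) and Clec4a1 at -1.31 (limma FDR 0.460). Clec4a3 had an FDR of 0.0470 without wild-type spleen 1 and 0.741 without wild-type spleen 5, and with sample quality weights the log2 fold changes were -0.27 and -0.005. Without wild-type spleens 4 and 5 they were -0.39 and -0.12.

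**Figure D4:**
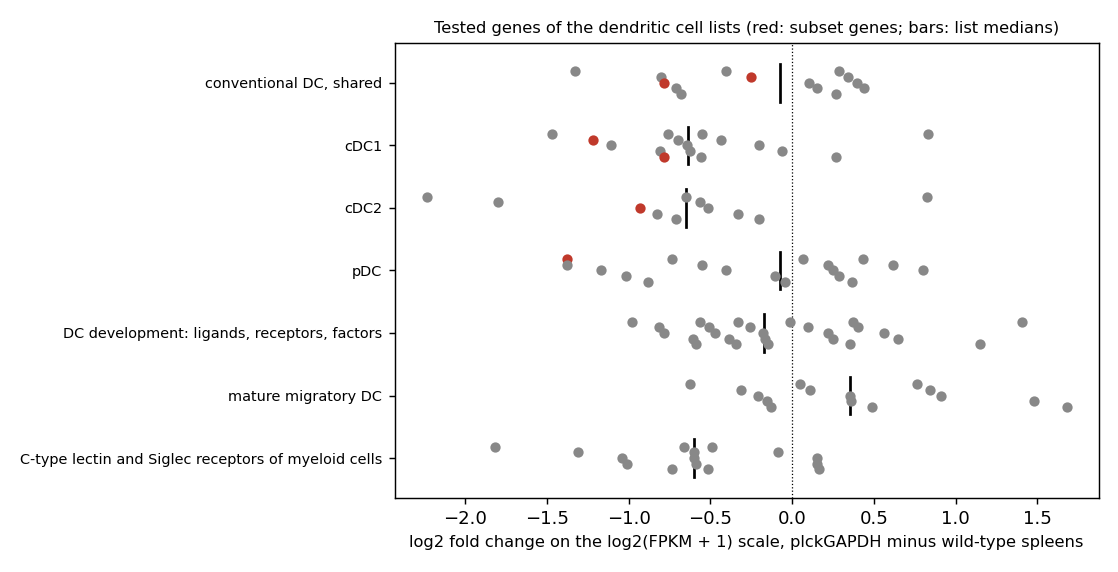
Log2 fold change on the log2(FPKM + 1) scale, plckGAPDH minus wild-type spleens (horizontal axis), of the tested genes of each dendritic cell list (rows); red points are 6 of the 7 subset genes and vertical bars are list medians. The median of the cDC1 list is -0.64, that of the pDC list -0.07 and that of the mature list 0.36.

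Of the markers of other cells, 1 gene was called. Summed FPKM cover all genes of a list, tested or not. Of 14 macrophage and monocyte genes tested, 12 had negative fold changes and none was called, with summed FPKM of 599 to 1400 in wild-type and 323 to 760 in plckGAPDH spleens. All 5 NK genes were negative and 1, Klrd1, was called lower, at -2.80 (limma FDR 0.0486; 1.23% of all genes were called lower, and none with receptor genes left out of the fit), with sums of 71.2 to 124 and 1.27 to 34.1. All 8 T cell genes and all 8 B cell genes were negative and none was called, with sums of 492 to 1020 and 200 to 1170 for T cells and of 387 to 1950 and 534 to 1390 for B cells. All 6 neutrophil genes were positive and none was called, with sums of 4.33 to 3360 and 570 to 1340, and 4 of 5 erythroid genes were negative, none called, with sums of 1.88 to 50500 and 19.4 to 1480. All 6 cell cycle genes were positive and none was called, with sums of 40.0 to 83.8 in wild-type and 87.4 to 547 in plckGAPDH spleens. None of these lists had all defining genes at 0 in a group of spleens, and their part in the values of the dendritic cell genes was not tested. Relative to Ptprc, the log2 fold changes were -0.81 for Clec9a, -0.98 for Siglech, -1.50 for Cd209a and -0.63 for Clec10a, but -0.23 for both Batf3 and Flt3.

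In the lymph nodes of plckGAPDH mice, Clec9a, Siglech and Cd209a were low in both, and Clec10a and Flt3 differed between the nodes. The nodes carry different titles (MES and LN), so such differences cannot be told apart from a difference in what was sampled. Node 455 held 0.21 FPKM of Clec9a, 0.47 of Siglech and 0.21 of Cd209a. Node 508 held 0.31 of Clec9a and 0.04 of Siglech, and Cd209a was listed at 0, where 3 fragments would be worth 0.0740 FPKM. Clec10a was at 3.94 FPKM in node 455, above every spleen, and at 0.47 in node 508. Flt3 was at 5.72 and 1.38, Batf3 at 4.2 and 1.2, and Zbtb46 at 1.13 and 0.68 FPKM in nodes 455 and 508. Node 455 lay below every spleen in 1 gene, Clec9a, beside 24.4% of all genes tested, and node 508 in 4, beside 54.6%. Node 455 lay above every spleen in 1 gene, Clec10a, beside 3.01%.

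Compared with the plckGAPDH spleens in a fit of all 9 libraries, 0 of the 7 genes were called, against 0.0146% of the 13682 genes tested (0.00731% called lower), and 0 had an unadjusted p under 0.05, against 11.3% of all genes. The log2 fold changes were -0.55 for Clec9a (unadjusted 95% interval -1.37 to 0.28, limma FDR 0.376), -0.81 for Siglech (-1.82 to 0.21, limma FDR 0.359) and 0.73 for Clec10a (-0.29 to 1.74, limma FDR 0.367). Those of the other genes were -0.53 for Zbtb46, -0.22 for Cd209a, -0.05 for Batf3 and 0.39 for Flt3. As deposited, 89.1% of all genes tested were lower in the nodes, with a median of -0.59, and median-of-ratios scaling moved that median to -0.01. Under that scaling Clec9a was at -0.29, Siglech at -0.59 and Clec10a at 1.14, and Batf3 turned to 0.51. Clec10a turned to -0.15 without node 455. Within animal 508, 5 of the 7 genes were lower in the node than in the spleen, beside 91.4% of all genes at 1 FPKM or more in both. Of the 7, only Batf3 (1.15 in the spleen, 1.2 in the node) and Flt3 (2.95 and 1.38) reached 1 FPKM in both. The count and the share therefore rest on unlike sets of genes.

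The genes with the most similar pattern over the 9 libraries were sought by the root mean square difference of log2(FPKM + 1) values after the mean of each gene was subtracted. Clec9a was most like Peli1 (0.18, against an SD of 0.81 for Clec9a itself), followed by Gm19261 and 5830468F06Rik. Siglech (SD 1.02) was most like Galnt10 (0.19), Pglyrp2 and Fam102a. Cd209a (SD 1.17) was most like Klra9 (0.17) and Klra7 (0.24), NK receptors of a family whose members share sequence, and B3gnt8. Klra9 was at 4.01, 0.52 and 10.2 FPKM in wild-type spleens 1, 4 and 5 and at 0 to 0.34 in plckGAPDH spleens, the order that Cd209a had among the wild-type spleens. Batf3 (SD 0.62) was most like Pros1 (0.15), Ugt1a7c and Arhgef10l, and Zbtb46 (SD 0.42) most like Nipal3 (0.13), Spata1 and Secisbp2. Flt3 (SD 0.78) was most like Tspan13 (0.22), Rras2 and Gm12693, and Clec10a (SD 0.68) most like P2ry6 (0.29), Ldhb and Igkv4-78. Between 6358 and 13632 genes were searched for each.

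By mean level per length, the order in wild-type spleens was Batf3 (5.09 FPKM), Siglech (5.01), Cd209a (4.81), Flt3 (4.54), Clec9a (3.46), Zbtb46 (2.26) and Clec10a (2.13). The ranges of all neighbours in it overlapped between spleens, and the order was not tested. Within spleens, Zbtb46 was above Clec10a in every wild-type spleen. In plckGAPDH spleens the order was Batf3 (2.68), Flt3 (2.38), Zbtb46 (1.82), Siglech (1.29), Clec9a (0.888), Clec10a (0.670) and Cd209a (0.298). Ranges of neighbours again overlapped between spleens, but Clec10a was above Cd209a in every plckGAPDH spleen. The 7 genes summed to 19.5 to 40.4 FPKM in wild-type spleens, 6.57 to 13.9 in plckGAPDH spleens, and 4.08 and 15.9 in nodes 508 and 455.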

How the data were processed

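FPKM of 46517 genes in 9 libraries with 2 decimals were used as the authors deposited them; per the labels' protocols, libraries were made from total RNA of splenocytes with a stranded total RNA kit. The submitters' processing notes list the build mm10 and the tools Bowtie2 2.2.6, RSEM, STAR 2.4.0a and, from Subread 1.5.0-p3, featureCounts. Which of them made the FPKM, with which annotation, is not given in those sources. A column without an animal number was used as a plckGAPDH spleen, since its name shares a word found only in those titles; spleen 331 has no column of its own.

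Groups were compared on log2(FPKM + 1) by the two-sided moderated test of limma 3.58.1 in R 4.3.3, its prior variance following the mean level, and p-values were adjusted over all genes (Benjamini-Hochberg). The 7 spleens needed 1 FPKM in 3 libraries, and the fit of 3 groups in 2. Fold changes on this scale understate changes of low genes. Depth was estimated from low FPKM of genes with 1 transcript in GENCODE M21, which fall on whole fragments (82.7% to 85.9% of values within rounding plus 0.05 of a fragment; by chance 30.9% to 33.2% would). Fragments per gene are upper figures, at the length of all exons, and cover counting error only. No pair of 36 shared over 0.257% identical values. Scripts were tested on simulated data. No count model was fitted.

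Members and lists were chosen with earlier results of these data known. Beyond the 7 genes, named genes were the 2 largest fold changes of each list, fixed reference genes and the 3 genes most like each member. Alternatives were pseudocount, filter, scaling, weights, trend, samples and genes in the fit.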

Additional observations from a re-analysis of the deposited data

Results flagged for a closer look

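Siglech in plckGAPDH spleen 508, at 0.15 FPKM, lay apart from the other 3 spleens of its group, which held 1.6 to 1.73. Its gap to the nearest of them was 0.918 of the whole range of the group. Chance marks about 1 in 20 groups in this way, and 7 genes were examined.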

How the results depend on the processing

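Of the subset genes, 0 were called in the spleens, 1 (Cd209a, FDR 0.0278) with scaling to genes other than mitochondrial, globin and receptor genes, and 2 (Siglech, FDR 0.0341, and Clec10a, FDR 0.0296) with limma's sample weights (24.8 for wild-type spleen 1, 0.296 to 2.04 for the other spleens; their fit gave a convergence warning). Other dendritic cell genes called numbered 0, 18 with those weights (7 higher, 11 lower), 1 with all 9 libraries in the fit, and 0 to 1 with each spleen left out (1 without wild-type spleen 1 or plckGAPDH spleen 343 or 547). All genes called numbered 181, 74 without a filter, 1863 with weights (891 higher), 0 without receptor genes, 12 without wild-type spleens 4 and 5, and 72 to 265 with each spleen left out (110, 90 and 72 without wild-type spleen 1, 4 or 5). The causes were not tested.

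Directions turned as follows. With scaling to Ptprc, chosen after seeing the data, Zbtb46 was at 0.26, Itgax at 0.28 and Flt3l at 0.11. With weights Tcf4 was at -1.15 and Cd74 at -0.30, and without wild-type spleens 4 and 5 at -0.55 and -0.21. With each spleen left out, Tcf4 ran from -0.21 to 0.70 (-0.09 without wild-type spleen 4) and Cd74 from -0.21 to 0.70. Between nodes and spleens, Batf3 was at 0.51 with median-of-ratios scaling, 0.34 without animal 508 and -0.67 to 0.57 with each library left out (0.12 and 0.07 without spleen 547 or the unnumbered spleen), Flt3 from -0.36 (without node 455; -0.004 without spleen 547) to 1.14, and Clec10a from -0.15 to 1.6. A node left alone is assumed to vary like the other groups. The other subset genes kept their direction under each alternative run.

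No paired analysis was possible because the groups share only 1 animal number (508). Depth limits Cd209a, Siglech and Clec10a in spleen 508, where at most 2.0, 11.6 and 6.5 fragments were estimated.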

Other observations

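Of 26 lectin and Siglec receptors in the list drawn up for myeloid cells, 3 (Mgl2, Mrc1 and Clec7a) were higher in node 455 than in every spleen. Mgl2, the close relative of Clec10a, was at 14.6 FPKM there, against 0.11 to 0.83 in the spleens and 0.24 in node 508. Mrc1, the mannose receptor of macrophages, was at 21.2 FPKM, against 0.34 to 17.9 in the spleens and 0.45 in node 508, and Clec7a, the beta-glucan receptor Dectin-1, at 46.6 against 6.36 to 29.8 and 3.91. Gcsam, a gene of germinal centre B cells that the cDC1 list also holds, was at 27.6 FPKM in node 455, against 0.10 to 4.11 in the spleens. Cd209b, a lectin of marginal zone macrophages, was at 18.0 FPKM in wild-type spleen 4 and at most 0.84 in the other spleens, while Cd209a was lowest in wild-type spleen 4 among the wild-type spleens. These genes were picked after their values were seen, and each value rests on 1 library. Node 455, titled MES, may also differ from node 508, titled LN, in what was sampled.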
